A study of Mus musculus with 24 samples.

Results

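The 7 genes described here move potassium and the ions coupled to it across the astrocyte membrane. They are the potassium channel genes Kcnj10, Kcnj16 and Kcnk1, the sodium pump beta subunit genes Atp1b2 and Atp1b1, and the cotransporter genes Slc4a4 and Slc12a2. They were taken by name, with earlier results of these data already known, and all 7 were found among the 24394 genes of the deposited table. RNA had been sequenced in bulk from mouse astrocytes sorted by fluorescence, from 4 brain regions: thalamus, cortex, hippocampus and olfactory bulb. In each region, 3 libraries carried the label KO, for mice with a conditional knockout of Nfix (NFIXcKO), and 3 carried the label WT, for control mice, giving 24 libraries in 8 groups. Nfix encodes nuclear factor I X, a DNA-binding transcription factor of glia. The driver of the knockout, the exons removed, the strain, the age of the mice, the sort marker and any pooling of animals are not given in the sources used here. Whether the 3 libraries of a group came from separate animals was not given either, so each p-value speaks only to how far these libraries vary, and that variation may be technical.

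Astrocytes take up the potassium that neurons release when they fire, and spread or store it until it can be returned. Inward rectifier channels let potassium in at negative membrane potentials, the sodium pump carries it in against its gradient in exchange for sodium, and the sodium, potassium and chloride cotransporter brings it in with chloride. The sodium and bicarbonate cotransporter couples the sodium gradient to the pH inside and outside the cell. Kcnj10 is a classic marker of mature astrocytes, and its loss in mouse and human leads to seizures and ataxia.

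The promoters of Kcnj10 and Kcnk1 are shown, because Kcnj10 had the clearest differences between regions below. Kcnk1 was the 1 gene of the 7 whose KO and WT libraries did not overlap in a region with all libraries used. It passed no test between KO and WT, and the shares of all genes that lay apart are given below. Each line gives the 250 bases before a transcription start (RefSeq, GRCm38.p6), 5′ to 3′ on the plus strand, and capitals mark TTGGC or its reverse complement GCCAA, which is each arm of the palindrome that the NFI proteins bind.
Kcnj10, chr1:172340960-172341209: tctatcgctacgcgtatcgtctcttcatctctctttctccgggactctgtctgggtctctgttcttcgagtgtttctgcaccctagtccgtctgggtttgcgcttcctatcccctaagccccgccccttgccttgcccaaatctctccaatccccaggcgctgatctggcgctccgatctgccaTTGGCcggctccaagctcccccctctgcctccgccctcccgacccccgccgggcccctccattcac
Kcnk1, chr8:125994852-125995101: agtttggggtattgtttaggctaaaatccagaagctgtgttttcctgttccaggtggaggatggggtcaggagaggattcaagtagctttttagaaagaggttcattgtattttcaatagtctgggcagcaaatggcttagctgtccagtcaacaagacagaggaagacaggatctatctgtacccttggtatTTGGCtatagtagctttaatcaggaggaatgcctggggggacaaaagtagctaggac
Each of the 2 windows held 1 such arm. Promoter windows of 250 bases before to 50 bases after the start were found for 5 of the 7 genes, with 9 starts, and not for Atp1b2 and Slc12a2. At least 1 arm was found in 7 of these 9 windows, with 2 for Kcnj10, 2 for Atp1b1, 1 for Kcnk1, 3 and 1 for the starts of Slc4a4, and 0 to 2 for the 4 starts of Kcnj16. Over all 32851 promoter windows of the same length, 46.7% held at least 1 arm on either strand and 14.4% held 2 or more. The full palindrome, TTGGC and GCCAA with 5 bases between them, was in 0.0365% of all windows and in 0 of the 9. A match gives the letters in the window and not a site in use.

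Levels are given as normalized reads, that is read numbers scaled by 1 factor for each library, as deposited. The libraries held 2517487 to 25616591 reads assigned to genes, and 3 reads, taken as the counting floor, were worth 1.18 to 29.7 normalized reads (a limit on counting error alone, as no molecular identifiers were described and copies of 1 molecule may count more than once). A pair of libraries stood apart. Thalamus KO replicate 3 held reads for 2220 genes and cortex WT replicate 3 for 3871, against 7509 to 11984 in the other 22. Of 12 astrocyte markers, 4 were at 0 in thalamus KO replicate 3 (Aldh1l1, Aqp4, Gjb6 and Gfap) and 2 in cortex WT replicate 3 (Aldh1l1 and Gfap), and none was at 0 in the other 22. Their summed level was 12207 and 19453 CPM (reads scaled to a common library total), against 34421 to 101080.5 in the other 22. The 10 oligodendrocyte markers summed to 76162 and 51082 CPM, against 1535 to 29140.1. Tests are therefore given with all 24 libraries and with the 22 others, and means of regions, ranges per kilobase and orders of markers over the 22. Hippocampus WT replicates 2 and 3 were unusually alike in which genes they detected: of 8364 genes at 50 normalized reads or more in either, 0 were at 0 in the other, against at least 850 for each of the other 275 pairs of libraries. The labels do not say whether this pair shares a source, in which case hippocampus WT would hold 2 independent libraries and not 3. Nfix, the targeted gene, went against the labels. It stood at 3440.2, 4521 and 6119 normalized reads in the olfactory bulb libraries labelled KO and 2360.2, 2431 and 2552 in those labelled WT, and at 7904, 5409.6 and 6877 in hippocampus KO and 5117, 4519 and 3900.5 in hippocampus WT. In the cortex and thalamus it was higher in every KO library than in every WT library once the 2 few-gene libraries were left out. No Nfix difference passed in limma (log2 0.41 to 0.94, adjusted p of at least 0.854). DESeq2 called Nfix in the average over regions (log2 0.86, adjusted p = 0.0226), also as higher in KO. Gene-level values do not show which exons the reads came from. KO and WT below mean libraries with that label.

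Per kilobase of merged exon (GENCODE M21), Atp1b2 and Kcnj10 had the highest medians of the 7 and Slc12a2 the lowest. Over the 22 libraries Atp1b2 had a median of 6054 normalized reads per kilobase (range 3946 to 12818), Kcnj10 5557 (1969 to 10293) and Slc4a4 3307 (1228 to 5872). Kcnj16 followed at 1368 (159 to 2858), then Kcnk1 at 582 (85.3 to 1920.3) and Atp1b1 at 535 (32.4 to 1651). Slc12a2 had a median of 75.4 (3.99 to 271). The ranges of all neighbours in this order overlapped. Atp1b2 was the highest of the 7 in 15 of all 24 libraries, Kcnj10 in 7 and Atp1b1 in 2. By total normalized reads Slc4a4, Atp1b2 and Kcnj10 ranked at a median of 24.0, 35.0 and 28.0 among the 24394 genes over the 22 libraries, and Slc12a2 at 2126.

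**Figure D1:**
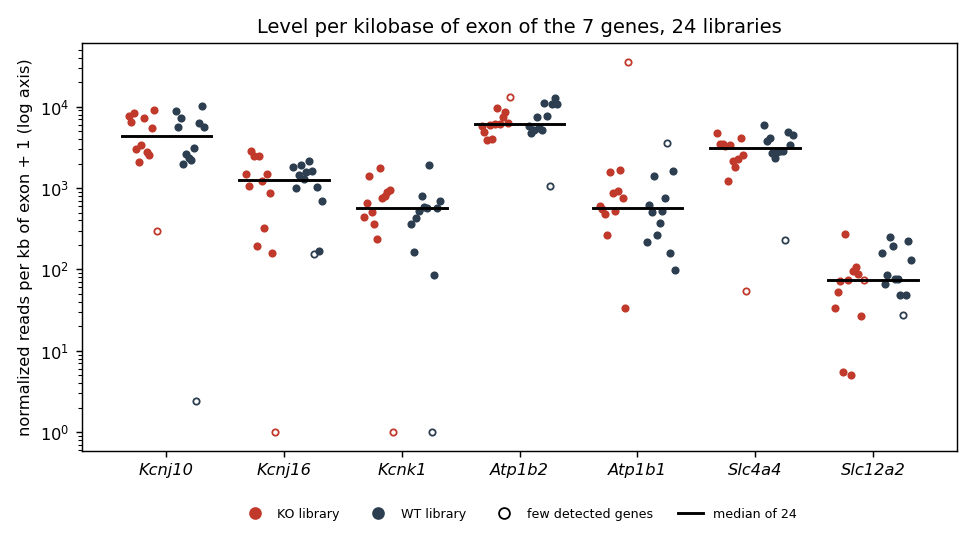
Level of the 7 genes per kilobase of merged exon (vertical axis, normalized reads plus 1, log scale) in each of the 24 libraries, one point per library with KO left of WT, open points for the 2 few-gene libraries and a line at the median of the 24. Among the filled points Atp1b2 lies between 3946 and 12818 and Slc12a2 between 3.99 and 271 normalized reads per kilobase, and the open points spread widest.

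Among the sodium pump beta subunit genes, the level of the glial Atp1b2 was the highest in the 22 libraries. Atp1b2 made up a median of 87.1% of the summed Atp1b1, Atp1b2 and Atp1b3 level per kilobase over the 22 libraries (range 67.6 to 98.4%), Atp1b1 8.22% and Atp1b3 4.49%. The median share of Atp1b2 was 85.8% in the 11 KO libraries and 87.6% in the 11 WT libraries. Of the pair Kcnj10 and Kcnj16, whose products form heteromeric channels, Kcnj10 made up 83.7% of the level per kilobase. The medians of this share were 83.7% in olfactory bulb, 58.6% in hippocampus, 65.6% in the cortex and 89.0% in the thalamus, and it ranged from 50.8 to 98.4%. The few-gene libraries differed: Atp1b2 made up 26.8% and Atp1b1 73.1% of the beta subunit level in thalamus KO replicate 3, and 21.4% and 72.2% in cortex WT replicate 3. Kcnj10 made up 0.896% of its pair in the cortex WT one, and the thalamus KO one had no Kcnj16 reads. These shares are a description with no test.

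Kcnj10 (ENSMUSG00000044708, GRCm38 chromosome 1, 172341210 to 172374085 on the plus strand, with 2 merged exons) encodes the main inward rectifier potassium channel of astrocytes. In the same GENCODE M21 annotation all 7 are protein-coding, and no other gene overlaps the exons of Kcnj10, Kcnj16, Atp1b2, Slc4a4 or Slc12a2. Kcnj10 measured 41829.8, 34582 and 44581 normalized reads in olfactory bulb KO, against 47455, 30718 and 39464 in olfactory bulb WT. Kcnj10 stood at 16234, 11276 and 18065 normalized reads in hippocampus KO, against 10646, 14116 and 12704 in hippocampus WT. The 6 olfactory bulb libraries all lay above the 6 hippocampus libraries, and the KO and WT values overlapped in both regions. Kcnj10 had 38704, 15067 and 13819 normalized reads in cortex KO, against 12098, 16800.0 and 7.56 in cortex WT. Kcnj10 reached 29455, 49413 and 1593 normalized reads in thalamus KO, against 33886, 55655 and 30641 in thalamus WT. Cortex KO replicate 1 stood above the other 5 cortex libraries. The 7.56 of cortex WT replicate 3 rested on 2 reads, under the floor of 3, and thalamus KO replicate 3 was the lowest thalamus library.

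Kcnj16 (ENSMUSG00000051497, chromosome 11, 110968033 to 111027968 on the plus strand, with 5 merged exons) encodes a subunit that joins the Kcnj10 product in a channel sensitive to pH. Kcnj16 measured 5803, 4160.2 and 11248 normalized reads in olfactory bulb KO, against 7213, 3934 and 5699.7 in olfactory bulb WT. Kcnj16 stood at 9675, 752 and 9688 normalized reads in hippocampus KO, against 7506, 5071 and 6248 in hippocampus WT. Hippocampus KO replicate 2 was low against the other 5 hippocampus libraries, and the groups overlapped in both regions. Kcnj16 had 4866, 1254 and 5807 normalized reads in cortex KO, against 8528, 6409 and 609 in cortex WT. Kcnj16 reached 3397, 626 and 0 normalized reads in thalamus KO, against 4023, 666 and 2758 in thalamus WT. Thalamus KO replicate 2 and thalamus WT replicate 2 were low, and thalamus KO replicate 3 had 0 reads, with a floor of 29.7 normalized reads there.

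Kcnk1 (ENSMUSG00000033998, chromosome 8, 125995170 to 126030685 on the plus strand, with 3 merged exons) encodes a background (leak) channel that contributes to the passive potassium conductance of mouse astrocytes. Its exons overlap the antisense gene Gm45875, and whether counting used the strand is not given in the sources used here. The reads of the pair therefore cannot be told apart. Kcnk1 measured 993, 1450.0 and 3178 normalized reads in olfactory bulb KO, against 804, 360.0 and 954 in olfactory bulb WT. Kcnk1 stood at 1130.2, 814 and 522 normalized reads in hippocampus KO, against 1171, 1788 and 1321 in hippocampus WT. All 3 KO libraries lay above all 3 WT libraries in the olfactory bulb, where KO replicate 1 and WT replicate 3 were close. Of 9385 genes there, KO lay all above WT for 410 (4.37%) and all below for 440. In the hippocampus all 3 KO libraries lay below all 3 WT libraries, and KO replicate 1 and WT replicate 1 were close. Of 9213 genes there, KO lay all below WT for 601 (6.52%) and all above for 517. Kcnk1 had 3970.4, 1692 and 1792 normalized reads in cortex KO, against 1280.3, 4292 and 0 in cortex WT. Kcnk1 reached 2022, 2122 and 0 normalized reads in thalamus KO, against 191, 1266 and 1558 in thalamus WT. The values of 0 belonged to the 2 few-gene libraries, whose floors were 29.7 in thalamus KO replicate 3 and 11.3 in cortex WT replicate 3.

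Atp1b2 (ENSMUSG00000041329, chromosome 11, 69599736 to 69605942 on the minus strand, with 5 merged exons) encodes the glial beta subunit of the sodium pump, also known as an adhesion molecule on glia. Atp1b2 measured 23783, 19901 and 16117 normalized reads in olfactory bulb KO, against 23658, 19534 and 21321 in olfactory bulb WT. Atp1b2 stood at 24599.7, 16485 and 24682 normalized reads in hippocampus KO, against 30320.2, 22211 and 20944 in hippocampus WT. The groups overlapped in both regions, and no library stood far from the rest. Atp1b2 had 39145, 24783 and 30874 normalized reads in cortex KO, against 45805, 31273 and 4342 in cortex WT. Atp1b2 reached 35278, 25472 and 53217 normalized reads in thalamus KO, against 44321, 52363 and 43769 in thalamus WT. Cortex WT replicate 3 was the lowest of all 24 libraries and thalamus KO replicate 3 the highest. Atp1b1 (ENSMUSG00000026576, chromosome 1, 164437109 to 164458355 on the minus strand, with 7 merged exons) encodes the beta subunit abundant in neurons and in epithelia such as the choroid plexus, and its exons overlap Nme7 on the other strand. Atp1b1 measured 1829, 1689 and 1457 normalized reads in olfactory bulb KO, against 662, 1903 and 1546 in olfactory bulb WT. Atp1b1 stood at 819, 4785 and 2694 normalized reads in hippocampus KO, against 4339.9, 816 and 1153 in hippocampus WT. Single libraries stood high in the hippocampus, KO replicate 2 and WT replicate 1. Atp1b1 had 1609, 2849 and 5086 normalized reads in cortex KO, against 1600.4, 2353 and 11059 in cortex WT. Atp1b1 reached 2323, 99.973 and 109353 normalized reads in thalamus KO, against 484, 5046 and 299 in thalamus WT. The highest values in the cortex and thalamus were those of the 2 few-gene libraries.

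Slc4a4 (ENSMUSG00000060961, chromosome 5, 88886818 to 89239653 on the plus strand, with 29 merged exons) encodes the electrogenic sodium and bicarbonate cotransporter of astrocytes. Slc4a4 measured 50980.3, 37389 and 37291 normalized reads in olfactory bulb KO, against 63502, 41323 and 44908 in olfactory bulb WT. Slc4a4 stood at 35410.3, 13276 and 37061 normalized reads in hippocampus KO, against 29204, 25227 and 29740.1 in hippocampus WT. Hippocampus KO replicate 2, low in Kcnj16, was also the lowest here, and the groups overlapped. Slc4a4 had 23089, 19883 and 24871 normalized reads in cortex KO, against 30891, 30706 and 2443 in cortex WT. Slc4a4 reached 44359, 27456 and 574 normalized reads in thalamus KO, against 52283, 36112 and 49134 in thalamus WT. Leaving out cortex WT replicate 3, the 3 cortex KO libraries lay below the 2 WT libraries, as for 12.4% of genes. Slc12a2 (ENSMUSG00000024597, chromosome 18, 57878678 to 57946821 on the plus strand, with 27 merged exons) encodes the sodium, potassium and chloride cotransporter that raises chloride inside cells. Slc12a2 measured 359.9, 572 and 775 normalized reads in olfactory bulb KO, against 1721, 705 and 912 in olfactory bulb WT. Slc12a2 stood at 49.5, 2962 and 799 normalized reads in hippocampus KO, against 2703, 2081 and 834 in hippocampus WT. Hippocampus KO replicate 1 was far below the other libraries of its region. Slc12a2 had 43.6, 1044 and 1149 normalized reads in cortex KO, against 813, 519 and 291 in cortex WT. Slc12a2 reached 948, 282 and 792 normalized reads in thalamus KO, against 524, 2416 and 1414 in thalamus WT. Cortex KO replicate 1 was likewise low, and the groups overlapped in all 4 regions.

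**Figure D2:**
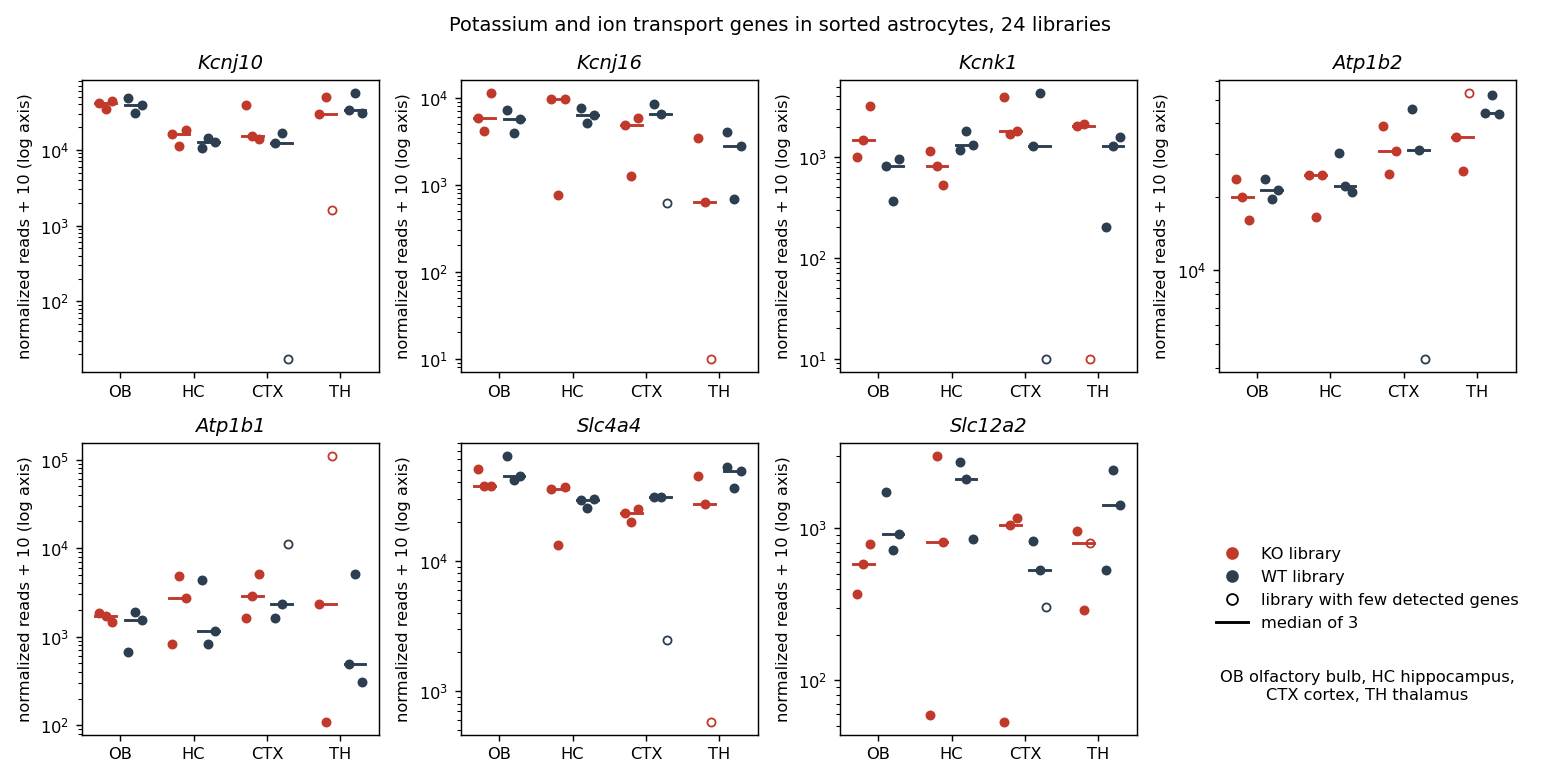
Normalized reads of the 7 genes (vertical axes, value plus 10, log scale) in each of the 24 libraries, by region, with KO left of WT, one point per library, open points for the 2 few-gene libraries and lines at the group medians. Kcnj10 lies higher in the olfactory bulb than in the hippocampus in every library. For Kcnk1, KO lies all above WT in the olfactory bulb, as for 410 of 9385 genes (with 440 all below). In the hippocampus Kcnk1 lies all below WT in KO, as for 601 of 9213 genes (with 517 all above). The 2 few-gene libraries lie far from their groups for several genes.

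Regions differed in the levels of Kcnj10, Slc4a4 and Atp1b2, and these calls were made without the 2 few-gene libraries and not with them. Over the 22 libraries, with both genotypes, Kcnj10 averaged 39772 ± 6251 normalized reads in olfactory bulb libraries (SD, n = 6), 13840.2 ± 2889 in hippocampus (n = 6), 19298 ± 10984 in cortex (n = 5) and 39809.9 ± 11934 in thalamus (n = 5). The order ran thalamus, olfactory bulb, cortex and hippocampus. The ranges of neighbours in this order overlapped. Limma gave a log2 difference of 1.53 between the highest and the lowest region (F test on log2 of the value plus 10, Benjamini-Hochberg adjusted p = 2.12e-08). In bulk samples fewer cells of a type and less RNA per cell cannot be told apart. Of the 7 genes 3 passed, beside 2.87% of 12424 genes tested. Slc4a4 averaged 45899 ± 10041 normalized reads in olfactory bulb, 28319.7 ± 8548 in hippocampus, 25888 ± 4826 in cortex and 41869 ± 10103 in the thalamus, a difference of 0.77 (limma, adjusted p = 0.00672). The order of Slc4a4 was olfactory bulb, thalamus, hippocampus and cortex, and the ranges of all neighbours overlapped. Atp1b2 ran the other way in the olfactory bulb, with 20719 ± 2886 there, 23207 ± 4604 in hippocampus, 34376 ± 8175 in cortex and 40241 ± 10232 in the thalamus (0.86, limma, adjusted p = 0.00144).

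With all 24 libraries limma called none of the 7 between regions (both genotypes, 1.4% of 12477 genes called, unadjusted p of 0.0350 for Kcnj10 and 0.0135 for Kcnj16, and edgeR and DESeq2, run on whole reads from all libraries but thalamus KO replicate 3 and thalamus WT replicate 1, also called none of the 7). Leaving out 1 of the 24 called Kcnj16 without thalamus KO replicate 1 (limma, adjusted p = 0.0347) and none of the 7 otherwise. Without the 2 few-gene libraries, leaving out each of the 22 in turn kept Kcnj10, Slc4a4 and Atp1b2 past the threshold in 22 of 22 fits. The Slc4a4 call was lost with TMM factors (limma, adjusted p = 0.0745), with upper-quartile factors (0.0699) and with edgeR (0.130). Kcnj10 and Atp1b2 passed in each of these 3, with adjusted p of at most 0.0241. The other 4 genes did not pass over the 22 libraries, but leaving out 1 more called Kcnj16 without hippocampus KO replicate 2 (limma, adjusted p = 0.00222) and Atp1b1 without thalamus KO replicate 1 (0.0310). Kcnj16 had the widest difference among them with 1.81 (limma, adjusted p = 0.296), with means of 6490.0 ± 3359 in the hippocampus, 6343 ± 2687 in the olfactory bulb, 5373 ± 2666 in the cortex and 2294 ± 1569.6 in the thalamus. Atp1b1 gave 1.80, Slc12a2 0.86 and Kcnk1 1.15, all on the same log2 scale. Leaving out 1 of the 22 moved these differences over 1.2 to 2.41 for Kcnj16, 0.71 to 2.90 for Atp1b1, 0.30 to 1.65 for Slc12a2 and 0.71 to 1.58 for Kcnk1.

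Pairs of regions located these differences. Kcnj10 was higher in the olfactory bulb than in the hippocampus by 1.53 (SE 0.21, adjusted p = 6.24e-07) and than in the cortex by 1.22 (SE 0.22, adjusted p = 2.91e-04), all in limma on the log2 scale over the 22 libraries. It was also higher in the thalamus than in the hippocampus by 1.5 (SE 0.22, adjusted p = 6.42e-06) and than in the cortex by 1.18 (SE 0.23, adjusted p = 0.00152) in limma. Olfactory bulb and thalamus differed by 0.03 (SE 0.22), which did not pass. Slc4a4 was higher in the olfactory bulb than in the hippocampus by 0.74 (SE 0.18, adjusted p = 0.0153) and than in the cortex by 0.77 (SE 0.19, adjusted p = 0.0195) in limma. Its thalamus minus hippocampus difference of 0.56 did not pass in limma (adjusted p = 0.222). Atp1b2 was lower in the olfactory bulb than in the cortex, at -0.74 (SE 0.19, adjusted p = 0.0206), and than in the thalamus, at -0.86 (SE 0.19, adjusted p = 0.00376), and its thalamus minus hippocampus difference of 0.71 missed the threshold in limma (adjusted p = 0.0566). Of the 7 genes, 2 were called between olfactory bulb and hippocampus, 3 between olfactory bulb and cortex, 1 between olfactory bulb and thalamus, 1 between thalamus and hippocampus and 1 between thalamus and cortex, beside 1.45%, 1.31%, 1.89%, 0.483% and 0.757% of all genes tested, in this order. None was called between cortex and hippocampus (0.00805% of genes), and none in any pair with all 24 libraries, where 0.705%, 0.906%, 1.12%, 0.0561%, 0.128% and 0% of genes were called, the pairs in the same order. These pairs share regions, so their results are not independent. Summed astrocyte markers moved with region in the 22 libraries, with means of 49755 CPM in olfactory bulb, 85812 in hippocampus, 91889 in cortex and 44476 in the thalamus, low where Kcnj10 was high. The oligodendrocyte markers had means of 3906 CPM in olfactory bulb, 3789 in hippocampus, 6871 in cortex and 12119 in the thalamus, and the ependymal and choroid plexus markers 40.6, 14266, 427 and 29764 in the same order. Both lists were highest in the thalamus, where Atp1b2 was too. The part of these markers in the region results was not tested.

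**Figure D3:**
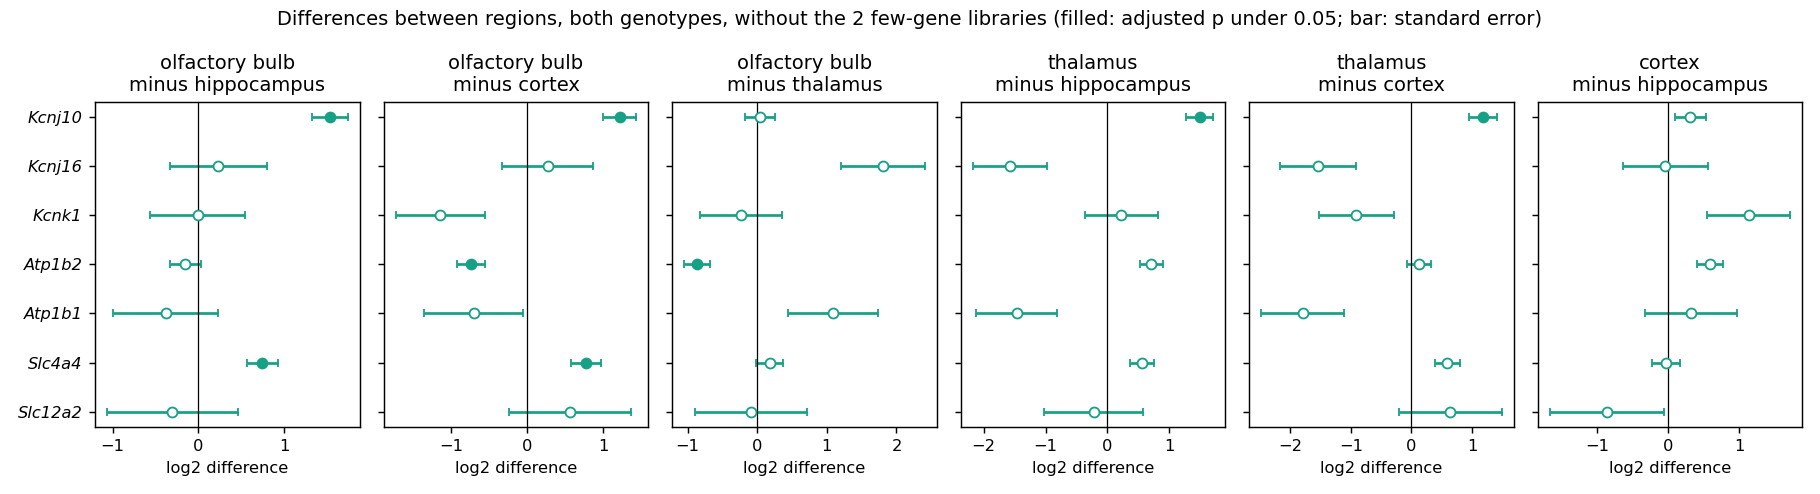
Log2 difference between each pair of regions (horizontal axes) for the 7 genes, both genotypes together, over the 22 libraries without the 2 few-gene libraries, with bars for the standard error and filled points for an adjusted p under 0.05 in limma. Kcnj10 is filled in 4 of the 6 pairs, Slc4a4 in 2 and Atp1b2 in 2.

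Within each genotype, 1 of the 7 genes was called between regions in KO and 3 in WT. In the 11 KO libraries Kcnj10 passed, with a difference of 1.43 between the highest and lowest region (limma, adjusted p = 5.13e-04), 1 of 7 beside 0.662% of genes. In the 11 WT libraries Kcnj10 passed with 1.64 (limma, adjusted p = 1.77e-07), Atp1b2 with 1.12 (0.00113) and Slc4a4 with 0.81 (0.0221), 3 of 7 beside 1.27% of genes. With thalamus KO replicate 3 kept in, none of the 7 was called within KO (0.0558% of genes), and with cortex WT replicate 3 kept in, none within WT (0.252%). In KO, Kcnj10 passed in 11 of 11 fits that left out 1 more library but not with edgeR (adjusted p = 0.374). In these fits Kcnj16 was also called without hippocampus KO replicate 2 (limma, adjusted p = 0.0196, difference 2.72). Atp1b1 was called without thalamus KO replicate 1 (limma, adjusted p = 0.0107, difference 4.70), a fit with 1 thalamus KO library, whose spread is assumed to be that of the other groups. In WT, leaving out thalamus WT replicate 1 called Kcnj16 (limma, adjusted p = 0.0168). Kcnj10 and Atp1b2 passed in 11 of 11 WT fits and Slc4a4 in 4 of 11 (limma, adjusted p from 0.00396 to 0.153), and edgeR also left Slc4a4 uncalled (adjusted p = 0.308), as did counting hippocampus WT replicates 2 and 3 as 1 library (limma, adjusted p = 0.0558). Kcnj10 averaged 39434 ± 14113 normalized reads in thalamus, 40331 ± 5165 in olfactory bulb, 22530.0 ± 14021 in cortex and 15192 ± 3513 in hippocampus of KO libraries (SD, n = 3, with 2 in thalamus). WT averages were 40061 ± 13602 in thalamus, 39212 ± 8371 in olfactory bulb, 14449 ± 3325 in cortex and 12489 ± 1745 in hippocampus (n = 3, with 2 in cortex), and the ranges of thalamus and olfactory bulb did not overlap those of cortex and hippocampus. A gene past the threshold in WT and not in KO is not shown to differ between them, and the test of that difference, the interaction, called none of the 7.

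None of the 7 genes passed the test between KO and WT in any region in limma, with all libraries or without the few-gene ones. In olfactory bulb 0 of 7 were called beside 0% of 9385 genes, in hippocampus 0 beside 0.0109% of 9213, in cortex 0 beside 0% of 8376 and in the thalamus 0 beside 0% of 7675. An unadjusted p under 0.05 was found in limma for 376, 578, 204 and 293 of these genes in the same order of regions. Without their few-gene library, cortex had 0 genes called and 279 under an unadjusted p of 0.05, and thalamus 0 and 348. On the recovered reads edgeR called 0, 0, 6 and 0 genes and DESeq2 62, 121, 26 and 43, none of them among the 7. The standard errors, on the log2 scale, set the reach of these tests. With all libraries they ran from 0.22 (Slc4a4) to 0.91 (Slc12a2) in olfactory bulb and from 0.27 (Atp1b2) to 1.08 (Kcnj16) in hippocampus. In cortex they ran from 0.47 (Atp1b2) to 3.26 (Kcnj10) and in thalamus from 0.51 (Atp1b2) to 2.46 (Kcnk1). In the average over regions, without the few-gene libraries, they ran from 0.13 (Atp1b2) to 0.57 (Slc12a2). A p that misses the threshold does not show that a gene is at the same level in both.

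Kcnk1 was the 1 gene of the 7 whose KO and WT libraries did not overlap in a region with all libraries used, and it did so in opposite directions in 2 regions. It averaged 1874 ± 1152 normalized reads in olfactory bulb KO and 706 ± 309 in olfactory bulb WT (SD, n = 3 each). All KO libraries lay above all WT libraries for 4.37% of genes there (410 of 9385, with 440 below). The log2 difference was 1.34 (SE 0.80, limma, adjusted p = 1.000). In the hippocampus it averaged 822 ± 304 in KO and 1427 ± 322 in WT. Every KO library lay below every WT library, as for 6.52% of genes (601 of 9213, with 517 above). The log2 difference was -0.83 (SE 0.75, limma, adjusted p = 0.870, and -0.78 with hippocampus WT replicates 2 and 3 counted as 1). The SDs on the log2 scale were 0.85 in olfactory bulb KO and 0.74 in olfactory bulb WT, and 0.55 in hippocampus KO and 0.31 in hippocampus WT. Across the 4 regions the KO minus WT difference of Kcnk1 spanned 3.66 with all libraries (limma, F test of the interaction, adjusted p = 0.942) and 2.33 without the few-gene ones (adjusted p = 0.972). None of the 7 passed this test, beside 0% of 12477 genes with all libraries and 0.00805% of 12424 without. An unadjusted p under 0.05 was found for 572 genes with all libraries in limma, edgeR called 1 and DESeq2 7. In the cortex and thalamus 0 of 7 genes were apart with all libraries used, beside 7.61% and 11.2% of genes. All directions between KO and WT follow the labels, which Nfix goes against.

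In the cortex and thalamus the sign of several genes turned with the few-gene libraries. With all libraries Kcnj10 stood at a log2 difference of 3.71 (SE 3.26) in the cortex, against 0.49 (SE 0.33) without WT replicate 3. Slc4a4 stood at 0.77 and -0.45, Atp1b2 at 0.76 and -0.29, and Kcnj16 at 0.03 and -1.17, with and without it. The median over all genes tested moved with them, at 0.49 with that library and -0.29 without it. Without it, Kcnj16 and Slc4a4 were lower in every cortex KO library than in both WT libraries, 2 of 7 beside 12.4% of genes (Kcnj16 unadjusted p = 0.0238 and adjusted p = 0.997, limma). In the thalamus the difference of Kcnj10 was -1.54 with KO replicate 3 and -0.02 without it. Slc4a4 gave -2.34 and -0.38, Atp1b1 1.73 and -0.86, and Kcnk1 -1.07 and 1.5. The median over all genes was -1.31 with it and -0.18 without it. Without it, both thalamus KO libraries lay above all 3 WT libraries for Kcnk1, 1 of 7 beside 8.85% of genes, and below them for Atp1b2, 1 of 7 beside 11.7% (Atp1b2 -0.64, unadjusted p = 0.0436, adjusted p = 0.922, limma). For Kcnk1 the KO minus WT sign was then positive in the olfactory bulb and thalamus and negative in the hippocampus. In the cortex the Kcnk1 difference was then -0.03, close to 0, and the groups overlapped.

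Averaged over the 4 regions, none of the 7 passed (0% of 12477 genes called in limma with all libraries and 0% of 12424 without the few-gene ones, where 797 had an unadjusted p under 0.05 and edgeR called 0). On whole reads DESeq2 called 1006 genes, none of the 7. Without the few-gene libraries Atp1b2 had a log2 difference of -0.30 (SE 0.13, limma, unadjusted p = 0.0246, adjusted p = 0.765), with regional values from -0.12 to -0.64. Leaving out 1 library took the values of olfactory bulb and hippocampus up to 0.02 and 0.03. Slc4a4 gave -0.30 (SE 0.14, adjusted p = 0.776, limma), with regional values from -0.11 in the hippocampus to -0.45 in the cortex. In the hippocampus its sign turned with the setting: the mean was 28582 ± 13281 normalized reads in KO and 28057 ± 2465 in WT (SD, n = 3 each), edgeR gave 0.04 and DESeq2 0.03, and leaving out 1 library gave -0.37 to 0.37. Slc12a2 gave -1.13 (SE 0.57, adjusted p = 0.781, limma) with regional values from -1.69 in the hippocampus to -0.71 in the cortex. In the cortex KO replicate 1 stood at 43.6 normalized reads, and the means were 745 ± 610.0 in KO (SD, n = 3) and 666 ± 208 in WT (n = 2), higher in KO. With all 6 cortex libraries edgeR gave 0.61, DESeq2 0.52 and limma -0.33, or 1.12 without KO replicate 1. Kcnj10 gave 0.20, Kcnj16 -0.48, Kcnk1 0.49 and Atp1b1 0.14. Of the 7, 3 lay above 0 and 4 below, with a median of -0.30 beside -0.14 over all genes tested. With all 24 libraries the 7 had 4 above and 3 below 0 (median 0.03, all genes -0.17), and the average of Atp1b2 was 0.03, the sign turning with the few-gene libraries. Since Nfix was higher in the KO libraries, these signs follow the labels and not a measured loss of Nfix.

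**Figure D4:**
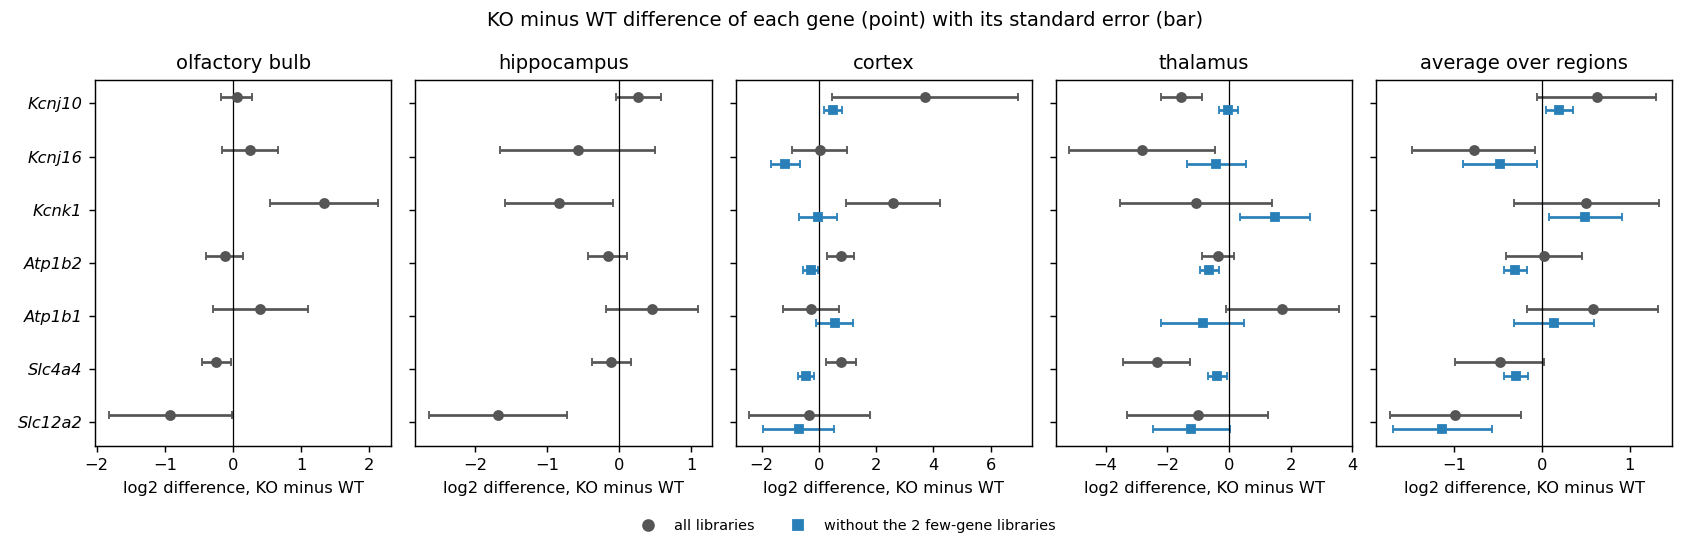
Log2 difference KO minus WT (horizontal axes) of each of the 7 genes in each region and averaged over regions, points with bars for the standard error, with all 24 libraries and without the 2 few-gene libraries. No gene has an adjusted p under 0.05 in limma, and the cortex and thalamus points move when the few-gene libraries are left out, most of all Kcnj10 in the cortex.

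Of 37 other genes of ion homeostasis, 34 were tested in the average over regions, and none passed the test between KO and WT there or in any region. The list covers Atp1b3 and FXYD regulators of the sodium pump, other potassium channels, bicarbonate transporters and carbonic anhydrases, the other cation and chloride cotransporters with their kinases, sodium and calcium exchangers, and genes of chloride and volume regulation. Without the few-gene libraries 16 lay above 0 and 18 below in the average (median -0.05, all genes -0.14). The smallest p-values there were those of Oxsr1, a kinase that activates Slc12a2, at 1.95 (limma, adjusted p = 0.765), of the neuronal chloride extruder Slc12a5 at -1.57 (adjusted p = 0.765) and of the sodium and calcium exchanger Slc8a2 at -1.06 (adjusted p = 0.776). Slc12a5 was at 0 in 12 of the 24 libraries and at 10 or more in 7, with at most 1.70 normalized reads in the thalamus. Slc8a2 was at 0 in 20 of the 24 libraries, among them all of olfactory bulb and thalamus. It was at 10 or more in 3, the fewest that the filter on low values admits. Its average rests on those 3 libraries and carries no weight as support for a difference. In the hippocampus the smallest p-values were those of Stk39, Car14 and Kcna2. Stk39, the kinase related to Oxsr1, stood at 853, 2013 and 409 normalized reads in hippocampus KO, against 792, 0.789 and 0 in hippocampus WT (limma, adjusted p = 0.698). The low values, under the counting floor, were those of hippocampus WT replicates 2 and 3, the pair that may share a source. Hippocampus WT replicate 1 lay within the KO range of Stk39. The carbonic anhydrase Car14 stood at 195, 1406 and 39.8 in hippocampus KO and at 0 in all 3 hippocampus WT libraries, whose floors of 3 reads were 1.18 to 2.20. Car14 met the filter on low values through its KO libraries alone, so its groups had to lie apart. The voltage-gated channel Kcna2 stood at 2915, 5159.9 and 12142 in hippocampus KO and 2663, 2254 and 2297 in hippocampus WT (log2 difference 1.24). Its KO libraries lay above its WT libraries, as for 5.61% of genes there, the Stk39 groups overlapped, and none of the 3 genes passed. Olfactory bulb had Slc4a10 (-2.82), Kcnn3 (0.88) and Slc12a7 (-2.75), none under an unadjusted p of 0.05. Without their few-gene library, cortex had Stk39 (-3.52), Kcnk2 (-2.73) and Fxyd1 (-1.35), and thalamus Oxsr1 (5.23), Kcnma1 (-3.53) and Lrrc8a (-1.12), again with none past the threshold in limma.

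Between regions Fxyd6 and Kcnj3, 2 of these 34 genes, were called both with all 24 libraries and without the few-gene ones, beside 1.4% and 2.87% of all genes. Fxyd6, a regulator of the sodium pump, stood at 476 to 1776 normalized reads in the 6 olfactory bulb libraries, against 0 to 289.8 in the hippocampus, 0 to 7.79 in the cortex and 0 to 462 in the thalamus, with medians of 2.06 in the hippocampus and 0 in the other 2 (largest difference between region means 6.12 on the log2 scale, limma, adjusted p = 0.00308). Kcnj3, a G protein-gated inward rectifier known from neurons, stood at 80.7 to 1946 in the olfactory bulb, against 1.33 to 430.5 in the hippocampus, 0 to 60.5 in the cortex and 0 to 122 in the thalamus, with medians of 4.35 in the hippocampus and 0 in the other 2 (4.77, limma, adjusted p = 0.0192). The olfactory bulb range of Fxyd6 lay above those of the other regions, and that of Kcnj3 overlapped those of hippocampus and thalamus. The summed neuron markers, without the few-gene libraries, ran at 141 to 309 CPM in the olfactory bulb, 6.60 to 349 in the hippocampus, 11.8 to 286 in the cortex and 71.5 to 865 in the thalamus, and their part in the levels of Fxyd6 and Kcnj3 was not tested. Without the few-gene libraries the largest differences between region means were 5.99 for Fxyd6 (limma, adjusted p = 0.00322) and 4.53 for Kcnj3 (limma, adjusted p = 0.0280).

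Levels of markers of other cell types varied between libraries beside Atp1b1, Slc12a2, Kcnj16 and Slc4a4. The 7 ependymal and choroid plexus markers (Ttr, Kcnj13, Folr1, Kl, Foxj1, Ccdc153 and Tmem212) summed to 58.0, 55866 and 8649.7 CPM in hippocampus KO and 12539, 1351 and 7132 in hippocampus WT. In the thalamus they were at 35119, 11423 and 144 in KO and 211, 94729 and 7339 in WT. Transthyretin (Ttr) made up at least 89.8% of the sum in 11 of these 12 libraries. Of the 7 markers, 1 to 6 were at 0 in each, Tmem212 in 11 of the 12. Over the 22 libraries, the one with most of these markers held the highest Atp1b1 and the highest Slc12a2 of its group in 4 of 4 hippocampus and thalamus groups, and over all 8 groups in 5 for Atp1b1 and 6 for Slc12a2. In the olfactory bulb the list stayed at 0 to 107 CPM, and Atp1b1 was still at 662 to 1903 normalized reads and Slc12a2 at 359.9 to 1721. The order of Kcnj16 followed that of the summed astrocyte markers in 6 of 8 groups, and so did the order of Slc4a4. Kcnj16 was lowest in the library with most oligodendrocyte markers in 6 of 8 groups and Slc4a4 in 5 of 8, among them hippocampus KO replicate 2 (7627 CPM, against 1535 and 1642 in the other hippocampus KO libraries) and thalamus KO replicate 2 (29140.1 CPM, against 3110.1 in replicate 1). Kcnj10 and Atp1b2 were also lowest at the highest oligodendrocyte markers, in 5 of 8 groups each. Kcnj10 followed the astrocyte order in 2 of 8 groups and Atp1b2 in 3. The part of these markers in the KO and WT values was not tested.

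**Figure D5:**
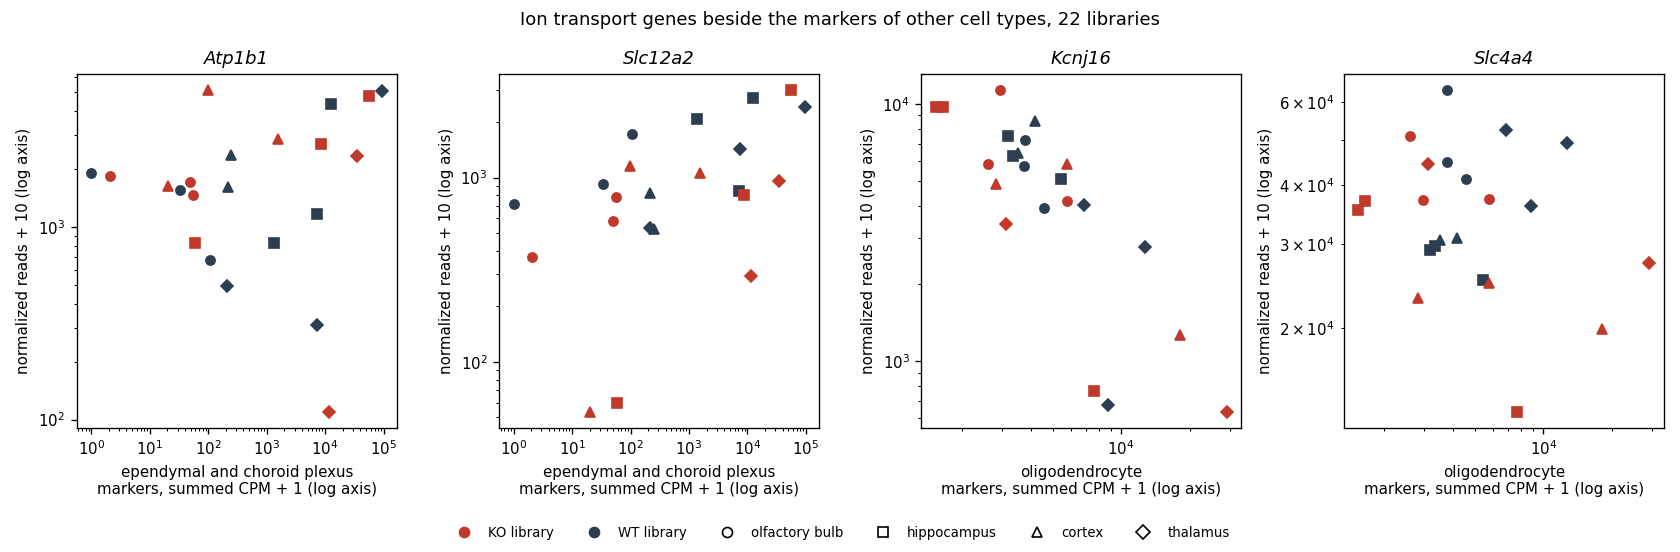
Normalized reads of Atp1b1 and Slc12a2 against the summed ependymal and choroid plexus markers, and of Kcnj16 and Slc4a4 against the summed oligodendrocyte markers (horizontal axes, CPM plus 1, vertical axes value plus 10, all on log scales), one point per library for the 22 libraries, with colour for genotype and shape for region. The hippocampus and thalamus library of each group with most ependymal and choroid plexus markers lies highest of its group for Atp1b1 and Slc12a2, which over all 8 groups holds in 5 for Atp1b1 and 6 for Slc12a2, and Kcnj16 is lowest of its group at the highest oligodendrocyte markers in 6 of 8 groups.

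The genes with the most similar pattern across libraries were found by Pearson correlation of log2(value + 10) over 8110 genes, a description with no test in which libraries share depth, region and the few-gene state. Over the 24 libraries Kcnj10 was closest to Zbtb20 (0.937), Tspan3 (0.936) and Fat1 (0.932), and Slc4a4 to Hadhb (0.954), Serpine2 (0.949) and Aqp4 (0.947), the last of these being the astrocyte water channel. Kcnj16 was closest to Luzp2 (0.921), Dio2 (0.914) and Ncan (0.909), and Kcnk1 to Ston2 (0.939), Usp8 (0.926) and Prdx6 (0.921). Atp1b2 was closest to Trps1 (0.843), Oxct1 (0.824) and Ndufb11 (0.810), Atp1b1 to Huwe1 (0.856), Ggnbp2 (0.818) and Gnai3 (0.802), and Slc12a2 to Psma1 (0.683), Upf3b (0.674) and Elovl7 (0.674). Without the 2 few-gene libraries these names changed for all but Luzp2 and Psma1. Over the other 22, Luzp2 came first for Kcnj16 again (0.876) and Psma1 for Slc12a2 (0.769). The GABA transporter Slc6a11 then came first for Kcnj10 (0.829) and second for Slc4a4 (0.776), after Cxxc4 (0.779). Abr came first for Atp1b2 (0.739), with the GABA-B receptor subunit Gabbr1 next (0.738), Npr2 for Kcnk1 (0.695) and Tmem65 for Atp1b1 (0.857). Among the 7 themselves, Kcnj16 and Slc4a4 moved together within groups over the 22 libraries, with a Pearson r of 0.860 between deviations from group means, against 0.396 between their levels over all 22. Kcnj10 and Slc4a4 showed the reverse, 0.114 within groups and 0.594 over all 22 libraries.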

How the data were processed

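RNA had been sequenced in bulk from sorted mouse astrocytes, in 24 libraries of 4 regions and 2 genotypes. The deposited table holds 1 normalized signal per gene and library. Per the submitters' processing notes the tools were FastQC 0.10.1, MultiQC 0.9, STAR 2.5.0a, R 3.5.2 and DESeq2 1.20.0, with build mm10; the counting tool, annotation and strand setting are not given in the sources used here. The deposited signal values equal whole multiples of 1 constant per library, its smallest value above 0, in all 24 libraries (100% of values within 0.001). The depth of each library rests on taking that constant as the worth of 1 read. Whole reads were used in count fits for 22 of the 24. Thalamus WT replicate 1 and thalamus KO replicate 3, with constants of 0.993 and 9.90, were set aside from those fits, though their values were whole multiples too. Of 24421 entries, 27 named like dates were left out, holding at most 0.255% of reads, and 24394 genes remained.

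Because the values are normalized, limma 3.58.1 (R 4.3.3, trend and robust) was run on log2(value + 10) for genes at 10 or more in at least 3 libraries, with Benjamini-Hochberg adjustment over all genes tested and a threshold of 0.05; fold changes of low genes are understated on this scale. Differences across regions and the interaction were F tests, given with the range between regions. As alternatives, edgeR 4.0.16 (quasi-likelihood) and DESeq2 1.42.0 were run on the whole reads of these 22 libraries, which are not the 22 left without the few-gene libraries, along with other pseudocounts, filters, scaling factors, weights and libraries left out. Simulated counts with known fold changes were run through part of the fits. These were limma and edgeR for KO against WT in the olfactory bulb and averaged over regions, and DESeq2 for the olfactory bulb. Limma was also run on simulated regional changes, within KO, within WT and over both genotypes. The other fits were not simulated. Tables were made with Python 3.11.15, pandas 2.3.3 and numpy 2.4.6. Genes were placed with GENCODE M21 on GRCm38. Named are all 7 genes, and of the 37 others those that passed or else the 3 with the smallest p-values in a comparison. The list had 3 more genes, which are not reported here. The 7 genes, the lists and the markers were chosen with earlier results of these data known.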

Additional observations from a re-analysis of the deposited data

Results flagged for a closer look

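Kcnk1, the leak channel gene, had all 3 KO libraries above all 3 WT libraries in the olfactory bulb, with a log2 difference KO minus WT of 1.34, and all 3 below in the hippocampus, with -0.83. It was picked out because every library of a group moved one way in 1 region and the opposite way in the other. KO libraries lay all above WT for 4.37% of genes in the olfactory bulb and all below for 6.52% in the hippocampus. In both directions, 410 genes lay above and 440 below in the olfactory bulb (9385 tested). In the hippocampus 517 lay above and 601 below (9213 tested). These directions follow the labels, which the level of Nfix goes against. The difference between these 2 regions was not tested on its own. The interaction over all 4 regions gave an adjusted p of 0.942 for this gene in limma, and neither region's own difference passed. The closest KO and WT libraries were 993 in KO and 954 normalized reads in WT in the olfactory bulb, and 1130.2 in KO and 1171 in WT in the hippocampus.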

How the results depend on the processing

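Counts of genes called at an adjusted p under 0.05 moved with the setting, and none of the 7 genes was among them for KO against WT in any setting run. KO against WT in olfactory bulb gave 0 genes as reported, 1 with 1 fit of all 24, 62 with DESeq2 and 0 to 2 with 1 library left out. KO against WT in hippocampus gave 1 gene as reported, 0 with pseudocount 1, 3 with pseudocount 100, 0 with no filter, 2 with upper-quartile factors, 23 with array weights, 0 with 1 fit of all 24, 0 with edgeR, 121 with DESeq2 and 1 to 7 with 1 library left out. KO against WT in cortex gave 0 genes as reported, 6 with edgeR, 26 with DESeq2 and 0 with 1 library left out. KO against WT in thalamus gave 0 genes as reported, 43 with DESeq2 and 0 to 1 with 1 library left out. The average over regions gave 0 genes as reported, 1006 with DESeq2 and 0 with 1 library left out (0 to 2 with 1 more left out beside the few-gene libraries). The interaction gave 0 genes as reported, 9 with no filter, 24 with array weights, 1 leaving out the few-gene libraries, 1 with hippocampus WT replicates 2 and 3 averaged without the few-gene libraries, 2 with edgeR without the few-gene libraries, 1 with edgeR, 7 with DESeq2 and 0 with 1 library left out (1 to 37 with 1 more left out beside the few-gene libraries). Regions within WT gave 28 genes as reported, 1038 with array weights, 140 leaving out the few-gene libraries, 18 with hippocampus WT replicates 2 and 3 averaged, 137 with TMM factors without the few-gene libraries, 153 with upper-quartile factors without the few-gene libraries, 116 with hippocampus WT replicates 2 and 3 averaged without the few-gene libraries, 126 with edgeR without the few-gene libraries, 71 with edgeR, 181 with DESeq2 and 14 to 140 with 1 library left out (73 to 146 with 1 more left out beside the few-gene libraries). Regions within KO gave 6 genes as reported, 2 with pseudocount 1, 0 with no filter, 3 with TMM factors, 96 with array weights, 71 leaving out the few-gene libraries, 56 with TMM factors without the few-gene libraries, 69 with upper-quartile factors without the few-gene libraries, 21 with edgeR without the few-gene libraries, 21 with edgeR, 181 with DESeq2 and 0 to 71 with 1 library left out (25 to 168 with 1 more left out beside the few-gene libraries). Regions over both genotypes gave 175 genes as reported, 518 with array weights, 356 leaving out the few-gene libraries, 345 with TMM factors without the few-gene libraries, 347 with upper-quartile factors without the few-gene libraries, 302 with hippocampus WT replicates 2 and 3 averaged without the few-gene libraries, 414 with edgeR without the few-gene libraries, 530 with edgeR, 405 with DESeq2 and 112 to 217 with 1 library left out (264 to 478 with 1 more left out beside the few-gene libraries). With the replicate number as a block KO against WT in hippocampus gave 3 genes and no other count moved by over 1.5 times. Deviations of same-numbered libraries correlated at -0.0674 to 0.0928, against -0.0190 to 0.0852 for the highest of the other numbers. Such small values cannot show whether the numbers pair the libraries, and the labels do not say. The block called none of the 7. Signs of single genes turned as follows (log2 differences KO minus WT). In olfactory bulb, Kcnj10 (0.055 as reported) gave -0.082 with upper-quartile factors and -3.6e-05 with edgeR. In hippocampus, Kcnj16 (-0.58 as reported) gave 0.12 with edgeR and 0.10 with DESeq2, and Slc4a4 (-0.11 as reported) gave 0.036 with edgeR and 0.028 with DESeq2. In the cortex, Atp1b1 (-0.28 as reported) gave 0.041 with TMM factors, 0.21 with upper-quartile factors, 0.39 with array weights and 0.56 leaving out the few-gene libraries, and Atp1b2 (0.76 as reported) gave -0.17 with array weights and -0.29 leaving out the few-gene libraries. In the cortex, Kcnj16 (0.027 as reported) gave -0.0012 with pseudocount 100, -1.12 with array weights, -1.17 leaving out the few-gene libraries, -0.30 with edgeR and -0.30 with DESeq2, and Kcnk1 (2.59 as reported) gave -0.033 leaving out the few-gene libraries. In the cortex, Slc12a2 (-0.33 as reported) gave 0.10 with upper-quartile factors, 0.61 with edgeR and 0.52 with DESeq2, and Slc4a4 (0.77 as reported) gave -0.36 with array weights and -0.45 leaving out the few-gene libraries. In the thalamus, Atp1b1 (1.73 as reported) gave -0.68 with array weights, -0.86 leaving out the few-gene libraries, -1.01 with edgeR and -1.07 with DESeq2, and Kcnj16 (-2.81 as reported) gave 0.27 with edgeR and 0.26 with DESeq2. In the thalamus, Kcnk1 (-1.07 as reported) gave 1.00 with array weights, 1.5 leaving out the few-gene libraries, 0.60 with edgeR and 0.62 with DESeq2. In the average over regions, Atp1b1 (0.58 as reported) gave -0.13 with edgeR and -0.29 with DESeq2, and Atp1b2 (0.026 as reported) gave -0.026 with TMM factors, -0.19 with upper-quartile factors, -0.21 with array weights, -0.30 leaving out the few-gene libraries, -0.32 with hippocampus WT replicates 2 and 3 averaged without the few-gene libraries, -0.31 with edgeR without the few-gene libraries, -0.16 with edgeR and -0.17 with DESeq2. In the average over regions, Kcnj16 (-0.78 as reported) gave 0.093 with edgeR and 0.066 with DESeq2. With 1 library left out the ranges in olfactory bulb that crossed 0 were Atp1b1 -0.055 to 0.70, Atp1b2 -0.26 to 0.021, Kcnj10 -0.11 to 0.20 and Kcnj16 -0.15 to 0.57. With 1 library left out the ranges in hippocampus that crossed 0 were Atp1b1 -0.11 to 1.17, Atp1b2 -0.27 to 0.028, Kcnj16 -1.19 to 0.64 and Slc4a4 -0.37 to 0.37. With 1 library left out the ranges in cortex that crossed 0 were Atp1b1 -0.83 to 0.56, Atp1b2 -0.29 to 1.41, Kcnj16 -1.17 to 0.73, Kcnk1 -0.033 to 4.34, Slc12a2 -1.10 to 1.12 and Slc4a4 -0.45 to 1.38. With 1 library left out the ranges in thalamus that crossed 0 were Atp1b1 -0.86 to 4.12 and Kcnk1 -2.37 to 1.5. With 1 library left out the ranges in the average that crossed 0 were Atp1b1 -0.07 to 1.17 (-0.41 to 0.69), Atp1b2 -0.23 to 0.19 (-0.37 to -0.23), Kcnj10 -0.18 to 1.05 (0.079 to 0.29), Kcnk1 -0.15 to 1.15 (0.26 to 0.71) and Slc4a4 -0.79 to 0.0092 (-0.38 to -0.17), with in parentheses the ranges with 1 more left out beside the few-gene libraries. Over all results and settings other than leaving out 1 library, 710 values kept direction and side of the threshold, 45 turned and 29 newly passed. Only KO against WT values could turn, as the interaction and region values are ranges that cannot fall below 0. There 2 turned and 68 did not in olfactory bulb, 4 and 73 in hippocampus, and 17 and 60 in cortex. In thalamus 10 turned and 67 did not, and in the average 12 and 79. The cause was not tested, except that leaving out the few-gene libraries removes 1 sample from the cortex and from the thalamus. The edgeR and DESeq2 fits ran without thalamus WT replicate 1 and thalamus KO replicate 3. Where thalamus libraries enter, as in the averages, those fits differ from the reported ones in libraries as well as in tool. Upper-quartile factors moved the median of all genes from -0.04 to -0.15 in olfactory bulb, -0.16 to -0.29 in hippocampus and -1.31 to -1.52 in thalamus, and TMM factors moved it from 0.49 to 0.63 in cortex. With 3 libraries a group and standard errors of up to 3.26 on the log2 scale, small differences between KO and WT were not detectable. Settings that leave out the few-gene libraries in combination with another change and the pairs of regions were added after the data were seen.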
